A study of Mus musculus with 16 samples.

Results

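The 9 genes described here handle the amino acid cysteine in the liver: Csad and Cdo1, which make taurine, the taurine transporter gene Slc6a6, Cbs and Cth of transsulfuration, Gclc, Gclm and Gss of glutathione synthesis, and Suox, which oxidises sulfite. They were chosen by symbol, all 9 were present, and 12617 genes of the table were tested in all. The genes were picked with earlier results of the same contrast known, Csad for its large difference, so their differences between the groups are given as a description and not as tests.

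The table holds mRNA sequencing of 8 livers from Cyp7a1 CRISPR mice (Cyp7a1 livers) and 8 from control CRISPR mice (control livers), and both groups ate a Western diet during 8 weeks. CRISPR edits genes, here the gene of cholesterol 7-alpha-hydroxylase, which sets the pace of the classical route to bile acids. For strain, age, sex, guides and delivery, nothing was given in the sources used here. The labels number the livers without stating that every number is its own animal, and p-values therefore cover the spread between libraries. Libraries held 19.6 to 27.4 M recovered reads in the Cyp7a1 group and 13.8 to 25.4 M in controls, control 38 being the least deep. Cyp7a1 mRNA itself did not fall in the libraries with the Cyp7a1 label, with 4702 ± 1126 normalized counts in Cyp7a1 livers and 3587 ± 1252 in control livers (SD, n = 8 each, limma adjusted p = 0.227), so every direction rests on the labels. All 12 hepatocyte markers were detected, with a summed level of 1807430 to 2625780 normalized counts in Cyp7a1 livers and 1772100 to 2589510 in control livers.

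Cysteine reaches hepatocytes from food or is made from methionine by transsulfuration, in which Cbs joins homocysteine to serine and Cth cleaves the product to cysteine. Cysteine dioxygenase, Cdo1, oxidises cysteine to cysteine sulfinate, and Csad decarboxylates that to hypotaurine, the precursor of taurine, with which mouse liver conjugates most of its bile acids. Cysteine that is not oxidised can enter glutathione, through glutamate-cysteine ligase (the catalytic subunit Gclc and the modifier subunit Gclm) and glutathione synthetase (Gss). Feeding bile acids is known to lower Csad transcripts in mouse liver.

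The sequences upstream of Csad and Gclm are shown because Csad had the largest difference of the 9 genes and because Gclm carries a core of the antioxidant response element. RefSeq promoter windows on GRCm38.p6 matched 5 of the 9 genes (Csad, with a pair of starts, Cbs, Gclm, Gss and Suox). The outer Csad start, 102205052, lies beyond the gene end given below, 102204724. Which start these livers used was not tested. The bases before each start are printed 5′ to 3′ on the gene's strand, without bases of the gene's own exons. Capitals mark CCAAT boxes (CCAAT), GC boxes (GGGCGG) and the antioxidant response element core (TGACNNNGC), each searched on both strands, and no match overlapped another in these windows.
Csad, outer start, minus strand, chr15:102205053-102205302: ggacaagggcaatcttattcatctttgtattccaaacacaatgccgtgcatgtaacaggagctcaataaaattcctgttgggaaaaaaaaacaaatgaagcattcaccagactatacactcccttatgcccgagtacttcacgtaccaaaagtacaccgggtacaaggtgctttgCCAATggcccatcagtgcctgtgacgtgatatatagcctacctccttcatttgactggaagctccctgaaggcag
Csad, inner start, minus strand, chr15:102189059-102189293: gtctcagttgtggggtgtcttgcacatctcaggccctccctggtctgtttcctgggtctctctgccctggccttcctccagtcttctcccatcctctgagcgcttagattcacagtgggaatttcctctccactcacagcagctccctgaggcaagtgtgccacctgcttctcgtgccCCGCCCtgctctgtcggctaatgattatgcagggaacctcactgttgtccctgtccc
Gclm, plus strand, chr3:122245307-122245556: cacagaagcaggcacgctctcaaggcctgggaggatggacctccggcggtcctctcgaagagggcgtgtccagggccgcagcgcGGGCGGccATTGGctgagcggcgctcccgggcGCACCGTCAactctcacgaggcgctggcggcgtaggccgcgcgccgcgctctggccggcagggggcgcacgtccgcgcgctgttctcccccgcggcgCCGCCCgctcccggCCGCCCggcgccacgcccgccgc
Over the 32851 RefSeq windows of 250 bases, 33.8% held a CCAAT box, 32.7% a GC box and 10.2% the antioxidant response element core. The LRH-1 element CAAGGTCA (1.33% of windows), the sterol element TCACNCCAC (1.05%), the C/EBP-ATF element TTGCATCA (0.791%) and TATAAA (12.4%) had no match on either strand in the windows of these 5 genes. A match or its absence describes these letters only.

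Csad (ENSMUSG00000023044, chromosome 15, 102176999 to 102204724 on mm10, minus strand) encodes cysteine sulfinic acid decarboxylase. Its lowest, median and highest values were 10609, 12614 and 14649 normalized counts in Cyp7a1 livers, against 1606, 2368 and 3700 in control livers. The lowest Cyp7a1 liver lay above the highest control liver. The log2 fold change was 2.43 ± 0.16 (SE), with a 95% interval of 2.09 to 2.78, or 5.41-fold, the 4th highest of the 12617 genes. In liver mRNA, a change in the share of cells and a change in RNA per cell cannot be told apart. Csad shares 278 exon bases with Zfp740 on the opposite strand, and the strand setting used for counting was not stated. Zfp740 had 865 ± 49.1 normalized counts in Cyp7a1 livers and 802 ± 38.1 in control livers (SD, n = 8 each), and the part of shared reads in the Csad values was not tested.

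**Figure D1:**
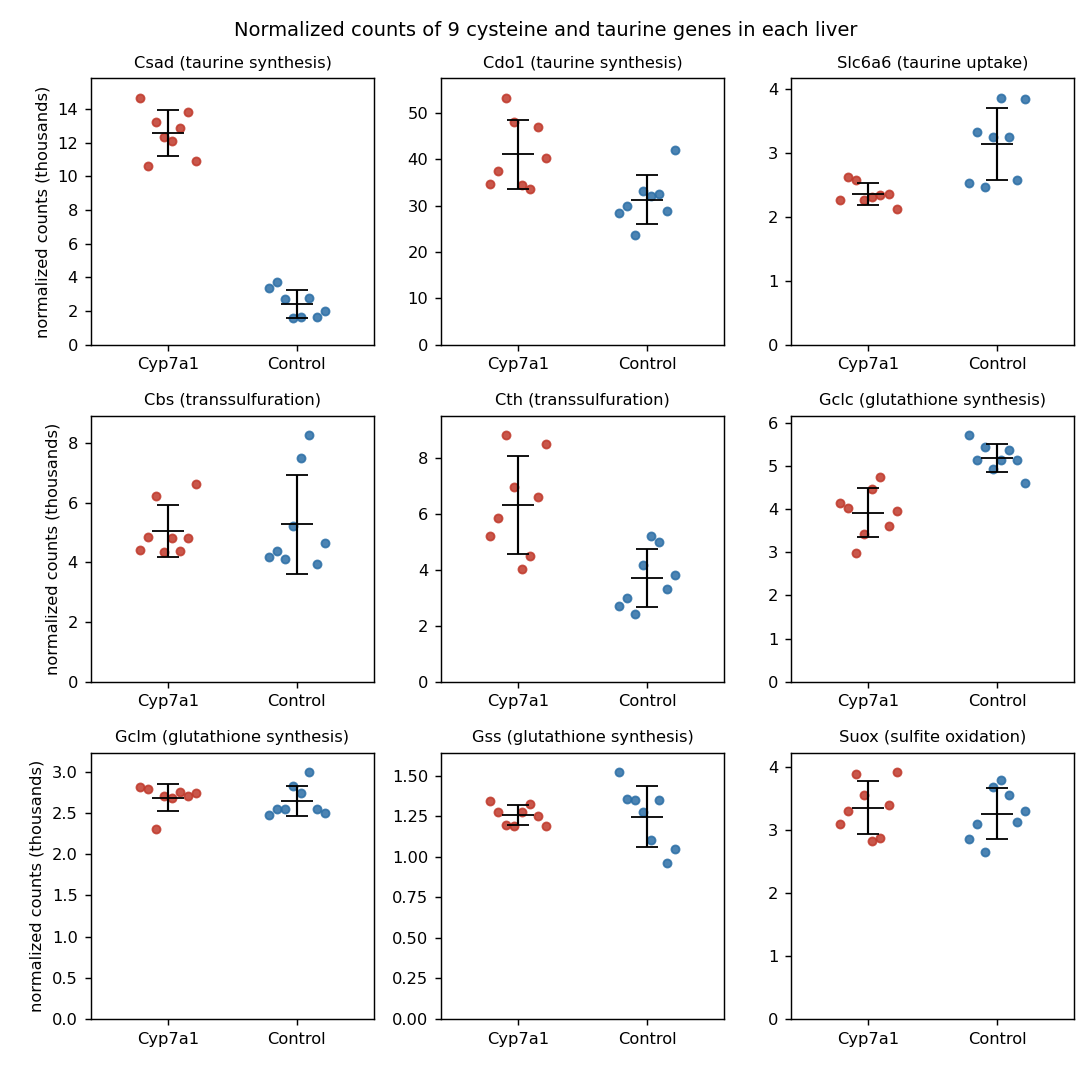
Normalized counts divided by 1000 (vertical axes, from 0) of the 9 genes in each of the 16 livers, Cyp7a1 in red and control in blue, with the mean and SD as black bars. Csad is the gene whose groups do not overlap, with 10609 to 14649 in Cyp7a1 livers and 1606 to 3700 in control livers.

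Cdo1 (ENSMUSG00000033022, chromosome 18, 46713193 to 46728395), the enzyme one step before Csad, had 33573, 38943 and 53214 normalized counts (lowest, median and highest) in Cyp7a1 livers, against 23699, 30946 and 42078 in control livers. All 8 Cyp7a1 livers lay above the control mean and 3 lay above every control liver, so the groups overlapped. The log2 fold change was 0.39 ± 0.12 (SE, 95% interval 0.14 to 0.63). The highest control value came from control 38. Slc6a6 (ENSMUSG00000030096, chromosome 6, 91684053 to 91759066), the cell membrane transporter that takes up taurine, had 2121, 2327 and 2616 normalized counts in Cyp7a1 livers, against 2466, 3252 and 3856 in control livers. Here 6 of 8 Cyp7a1 livers lay below every control liver. Its log2 fold change was -0.39 ± 0.09 (SE, 95% interval -0.59 to -0.20), opposite in sign to those of Csad and Cdo1.

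Of the transsulfuration enzymes, Cth had the larger difference between the groups. Cth (ENSMUSG00000028179, chromosome 3, 157894248 to 157925077), cystathionine gamma-lyase, had 4022, 6230 and 8798 normalized counts in Cyp7a1 livers, against 2410, 3554 and 5194 in control livers. All 8 Cyp7a1 livers exceeded the control mean and 6 exceeded every control liver, with a log2 fold change of 0.77 ± 0.18 (SE, 95% interval 0.39 to 1.15). Cbs (ENSMUSG00000024039, chromosome 17, 31608894 to 31637238), cystathionine beta-synthase, had 4361, 4808 and 6629 normalized counts in Cyp7a1 livers, against 3956, 4511 and 8259 in control livers. The Cyp7a1 range lay inside the control range, and the log2 fold change was -0.03 with a 95% interval of -0.34 to 0.29.

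In glutathione synthesis the catalytic and modifier subunits of the first enzyme parted. Gclc (ENSMUSG00000032350, chromosome 9, 77754535 to 77794485) had 2990, 3994 and 4733 normalized counts in Cyp7a1 livers, against 4606, 5130 and 5706 in control livers. The highest Cyp7a1 liver (Cyp7a1 26) overlapped the lowest control liver (control 38), and the other 7 lay below every control liver. The log2 fold change of Gclc was -0.41 ± 0.08 (SE, 95% interval -0.58 to -0.25). Gclm (ENSMUSG00000028124, chromosome 3, 122245557 to 122270732) had 2300, 2723 and 2809 normalized counts in Cyp7a1 livers, against 2480, 2545 and 2992 in control livers. Its log2 fold change was 0.02 with a 95% interval of -0.08 to 0.13. Per length of exon, the Gclc to Gclm ratio was 2.43 ± 0.28 in Cyp7a1 livers and 3.28 ± 0.31 in control livers (SD, n = 8 each). The ratio ranged over 2.12 to 2.88 in Cyp7a1 livers and 2.92 to 3.84 in control livers, without overlap. Both genes were chosen with this contrast known, and the share of other gene pairs without overlap was not computed.

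Gss (ENSMUSG00000027610, chromosome 2, 155563181 to 155592810) closes glutathione synthesis and had 1188, 1263 and 1347 normalized counts in Cyp7a1 livers, against 963, 1311 and 1520 in control livers. Its log2 fold change was 0.03 with a 95% interval of -0.14 to 0.19. Gss shares 395 exon bases with Acss2 on the opposite strand, and Acss2 was higher in Cyp7a1 livers, with 6612 ± 1917 normalized counts against 3392 ± 920 in control livers (SD, n = 8 each). Gss also overlaps the antisense genes Gssos1 and Gssos2, and Gclm overlaps Gm17494 and the pseudogene Gm6061, none of them in the table. The part of these shared bases in the values was not tested. Suox (ENSMUSG00000049858, chromosome 10, 128669894 to 128674073), the mitochondrial enzyme that turns sulfite to sulfate, had 2822, 3344 and 3908 normalized counts in Cyp7a1 livers, against 2645, 3212 and 3793 in control livers. The groups overlapped almost fully, with a log2 fold change of 0.04 and a 95% interval of -0.14 to 0.22.

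**Figure D2:**
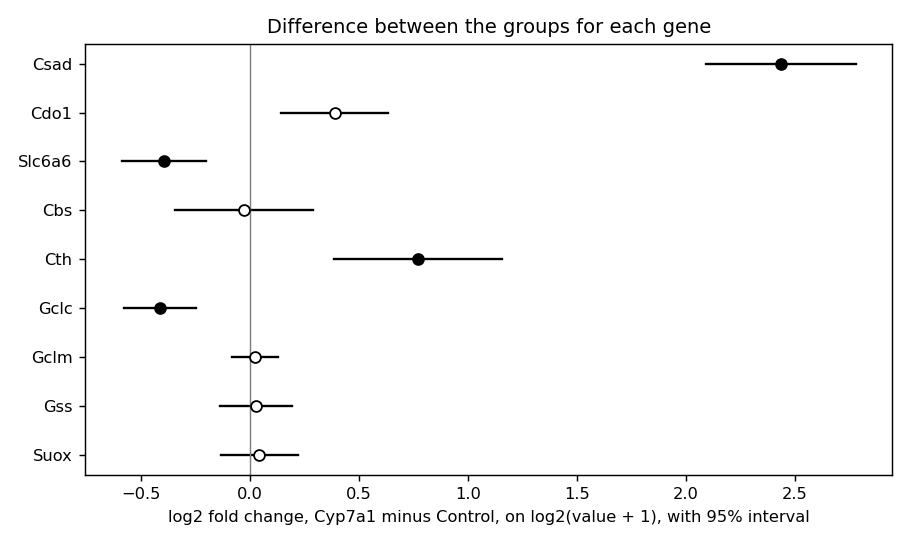
Log2 fold change of each gene, Cyp7a1 minus control, on the log2(value + 1) scale (horizontal axis) with its 95% interval as a line. Filled points passed the adjusted p threshold of 0.05 over all genes tested and open points did not; Csad lies at 2.43 and the other 8 genes between -0.41 and 0.77.

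Of the 9 genes, 2 were past the table-wide threshold and higher in Cyp7a1 livers (Csad and Cth), 2 were past it and lower (Slc6a6 and Gclc), and 5 were not past it (limma, adjusted p under 0.05). Over all genes tested, 6.12% passed, 3.07% higher and 3.05% lower. The groups did not overlap for 1 of the 9 genes and for 1.04% of all genes, 0.507% higher and 0.531% lower. The median log2 fold change was 0.03 over the 9 genes and 0.0034 over all genes. Since this contrast entered the choice of the genes, nothing is read from these counts or from the calls of single genes among the 9. The adjusted p of Cdo1 was 0.0566, and it passed under 6 of 23 other settings, with 0.0262 without control 38, 0.0480 without Cyp7a1 24 and 0.0470 without Cyp7a1 26.

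Per kilobase of exon, the order of the genes placed Cdo1 first in both groups, with 25000 ± 4508 normalized counts per kilobase in Cyp7a1 livers and 19055 ± 3219 in control livers (SD, n = 8 each). Csad stood 2nd of 9 in Cyp7a1 livers, at 3282 ± 360, and 6th of 9 in control livers, at 635 ± 216. Cth came 3rd in both groups, at 2257 ± 627 in Cyp7a1 livers and 1323 ± 370 in control livers. Among control livers Gclc (1375 ± 88.4), Cth and Suox (1303 ± 162) lay within 1 SD of each other, as did Cbs (706 ± 222) and Csad. Among Cyp7a1 livers Suox (1342 ± 168) and Gclc (1040 ± 150) came next, 4th and 5th. Slc6a6 (279 ± 19.7 in Cyp7a1 livers and 371 ± 66.5 in control livers) and Gss (212 ± 10.4 in Cyp7a1 livers and 211 ± 31.8 in control livers) were the lowest in both groups. The lengths are unions of all annotated exons, so levels of genes with long rarely used exons come out low.

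The same scale gives ratios of mRNA level between pairs of the genes, some of them of neighbouring steps. The Cdo1 level per length was 7.68 ± 1.44 times that of Csad in Cyp7a1 livers (range 5.51 to 9.37) and 33.7 ± 13.4 times in control livers (range 18.8 to 48.4, SD, n = 8 each). The Cth level was 3.32 ± 0.63 times that of Cbs in Cyp7a1 livers and 1.90 ± 0.26 times in control livers. The lowest Cyp7a1 ratio of Cth to Cbs, 2.241, lay just above the highest control ratio, 2.236. The ratio of Cth to Suox ranged over 1.27 to 2.02 in Cyp7a1 livers and 0.815 to 1.26 in control livers. That of Cdo1 to Gclc overlapped, at 16.2 to 40.8 in Cyp7a1 livers and 9.99 to 20.9 in control livers. The genes were chosen with the contrast known, so these ratios are a description.

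**Figure D3:**
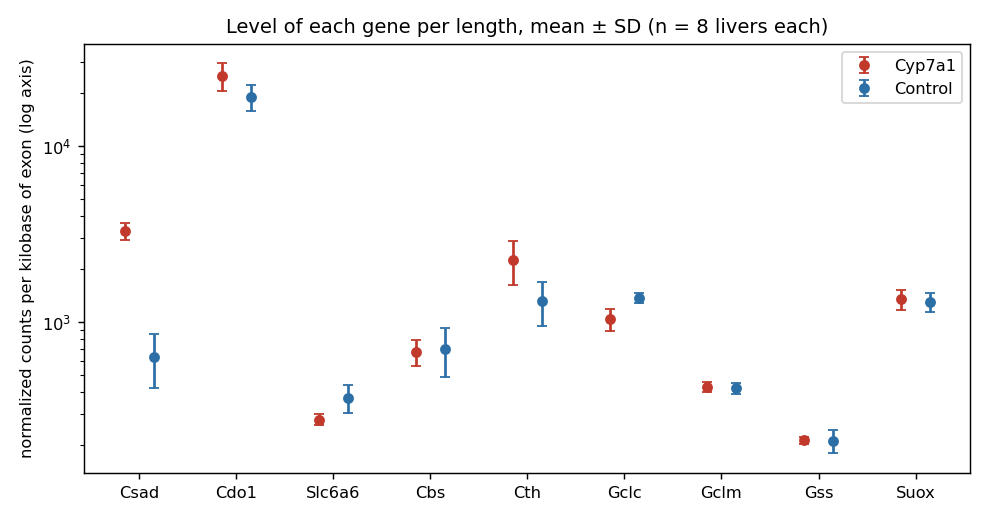
Normalized counts per kilobase of exon for the 9 genes (vertical log axis) as mean and SD over 8 livers, Cyp7a1 in red to the left of control in blue. Cdo1 is highest in both groups, and Csad lies at 3282 in Cyp7a1 livers, against 635 in control livers, where it is near Cbs.

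The livers of a group also varied among themselves. Such spread enters the p-values of the contrast that was known when the genes were chosen, so the values here are a description. The SD of log2(value + 1) of Csad was 0.16 in Cyp7a1 livers and 0.49 in control livers. That of Slc6a6 was 0.10 in Cyp7a1 livers and 0.26 in control livers, and that of Gss 0.07 in Cyp7a1 livers and 0.22 in control livers. For Gclc it was 0.21 in Cyp7a1 livers and 0.09 in control livers. For Cth it was 0.41 in Cyp7a1 livers and 0.40 in control livers. The median SD of genes with a mean of at least 1000 normalized counts was 0.12 in Cyp7a1 livers and 0.13 in control livers. The difference in spread between the groups was not tested.

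Within a group, Pearson's r of log2(value + 1) was computed for the 36 pairs of the 9 genes and for Csad with Cyp7a1, Cyp8b1 and Nr0b2, 78 relations over both groups, each with an exact permutation test over all pairings of 8 livers. After Benjamini-Hochberg adjustment over the 78, 4 relations passed 0.05 and 25 had an unadjusted p under 0.05. Cth and Suox passed in both groups. In Cyp7a1 livers their r was 0.995 (Spearman's rho 0.976, adjusted exact p = 0.00193), and 0.997 without the 2 livers farthest from the Cth median. In control livers r was 0.96 (rho 0.98, adjusted exact p = 0.0103), and 0.92 without the 2 farthest livers. Among Cyp7a1 livers the highest pair of values, Cth 8798 with Suox 3889 and Cth 8490 with Suox 3908, came from Cyp7a1 17 and 36, and the lowest, Cth 4022 with Suox 2822, from Cyp7a1 24.

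Cdo1 and Gclc ran against each other. In Cyp7a1 livers r was -0.96 and rho was -1 (adjusted exact p = 0.00193 for r and 0.00387 for rho), and r was -0.91 without the 2 livers farthest from the Cdo1 median. The liver with the highest Cdo1, Cyp7a1 17 with 53214, had the lowest Gclc, 2990, and the liver with the lowest Cdo1, Cyp7a1 26 with 33573, had the highest Gclc, 4733. In control livers r was -0.79 (rho -0.74) with an adjusted exact permutation p of 0.125, which did not pass, and it was -0.56 without the 2 farthest livers. Cbs and Cth passed in control livers (r = 0.88, rho 0.83, adjusted exact p = 0.0377), with 0.76 without the 2 farthest livers and an adjusted exact permutation p for rho of 0.150. Their r in Cyp7a1 livers was 0.72 (adjusted exact permutation p = 0.153) and -0.05 without the 2 farthest livers, so there it rested on those livers.

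**Figure D4:**
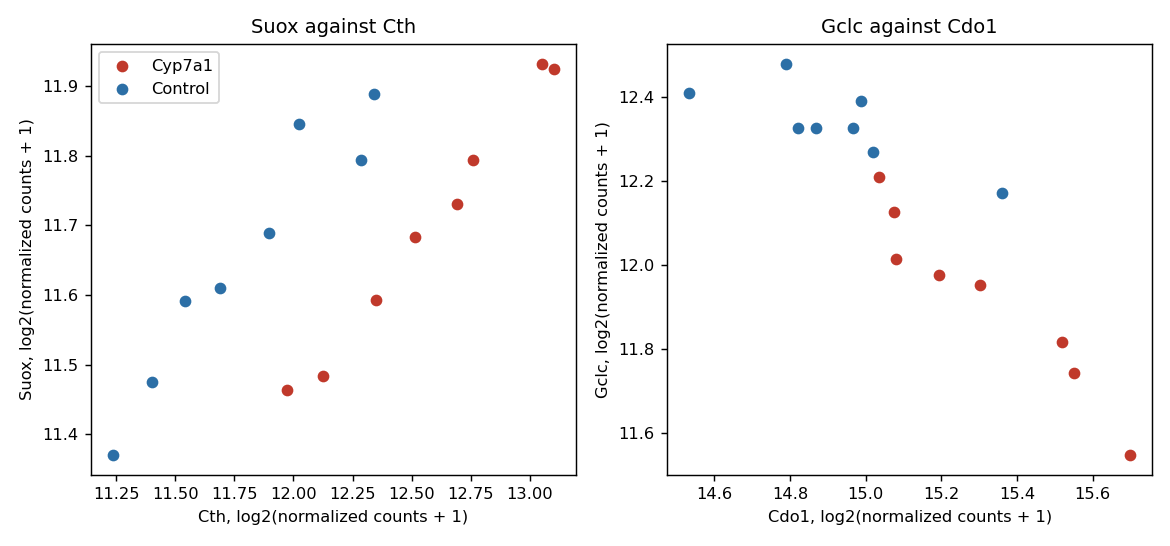
Suox against Cth (left) and Gclc against Cdo1 (right), each as log2(normalized counts + 1), with 1 point per liver, Cyp7a1 in red and control in blue. Suox and Cth fall along a separate line in each group, r = 0.995 in Cyp7a1 livers and 0.961 in control livers, while Gclc is lower where Cdo1 is higher, r = -0.96 in Cyp7a1 livers and -0.79 in control livers.

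The pairs were also ordered by role, without a test. The 6 pairs among Cdo1, Cbs, Cth and Suox all had r above 0 in both groups, 0.42 to 0.99 in Cyp7a1 livers and 0.33 to 0.96 in control livers. Given the library total of normalized counts, 5 of the 6 stayed above 0 in Cyp7a1 livers (Cdo1 with Cbs was at -0.02) and 3 of the 6 in control livers, where Cdo1 was at -0.38 with Cbs, -0.25 with Cth and -0.15 with Suox. The 12 pairs of one of these with Gclc, Gclm or Gss all had r below 0 in Cyp7a1 livers, with a median of -0.74 and a range of -0.96 to -0.43. Without the 2 farthest livers, r in Cyp7a1 livers was -0.03 for Cbs with Gclc, -0.20 with Gclm and -0.12 with Gss. It was then -0.28 for Cdo1 with Gclm and 0.12 for Suox with Gclm, so these relations rested on those livers. The rest of the 12 then lay between -0.92 (Suox with Gss) and -0.51 (Cth with Gclm). With all livers, the Gclm pairs include the far lower Gclm value described below. Given the library total, 11 of the 12 were below 0 in Cyp7a1 livers, with a median of -0.44. There Gclc was at 0.03 with Cbs, -0.33 with Cth and -0.25 with Suox, against -0.43, -0.82 and -0.81 without that adjustment. In control livers 7 of these 12 were below 0 and 5 above, with a median of -0.18 and a range of -0.79 to 0.86, the positive ones including Gclm with Cbs (0.86), Cth (0.78) and Suox (0.73). Given the library total, 3 of the 12 were below 0 in control livers, with a median of 0.67. Scaled to equal totals instead, 9 of the 12 were below 0 in control livers (median -0.41) and all 12 in Cyp7a1 livers (median -0.81). Given the summed hepatocyte markers, 4 of the 12 were below 0 in control livers (median 0.27) and all 12 in Cyp7a1 livers (median -0.74). The direction in control livers thus depended on how the total was handled. Whether the groups differ in these correlations was not tested. The r of Csad with the other 8 genes was -0.37 to 0.37 in Cyp7a1 livers and -0.59 to 0.78 in control livers. In control livers it was 0.78 with Gss (unadjusted exact permutation p = 0.0304, adjusted 0.125) and 0.56 with Gclc, and between -0.59 and -0.19 with Cdo1, Cbs, Cth and Suox, none of which passed. Given the library total, those last 4 were between 0.22 and 0.56. In Cyp7a1 livers, given that total, r of Csad was -0.71 with Gclc and 0.58 with Cdo1. With the rest it was between -0.33 (Gclm) and 0.34 (Cth). Scaled to equal totals, Csad was at 0.28 with Gclc and -0.03 with Cdo1 in Cyp7a1 livers. Its r with Nr0b2 was 0.01 in Cyp7a1 livers and 0.47 in control livers, with Cyp8b1 -0.15 in Cyp7a1 livers and -0.18 in control livers, and with Cyp7a1 -0.31 in Cyp7a1 livers and -0.17 in control livers, none of which passed.

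**Figure D5:**
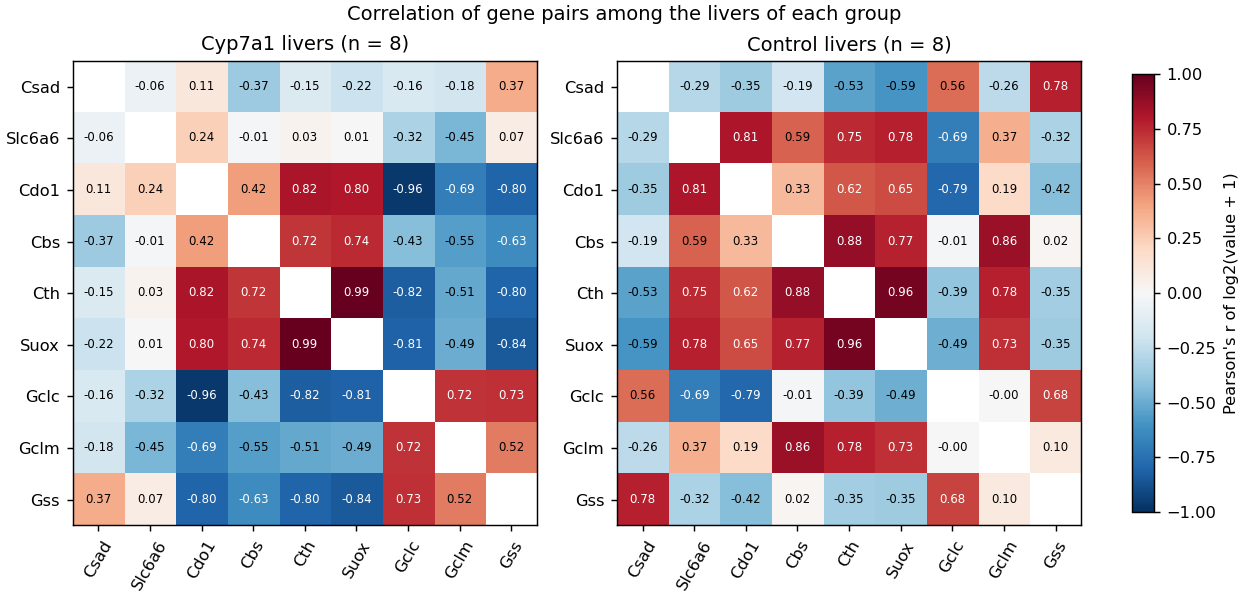
Pearson's r of log2(value + 1) for each pair of the 9 genes over the 8 Cyp7a1 livers (left) and the 8 control livers (right), red above 0 and blue below. Cdo1, Cbs, Cth and Suox are positive with each other in both panels, and all 12 of their pairs with Gclc, Gclm and Gss are negative in Cyp7a1 livers. Not all of these signs hold given the library total or without the 2 farthest livers, while all hold when scaled to equal totals.

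The library total used above moved with these genes. This total of normalized counts, 19.3 to 21.7 M in Cyp7a1 libraries and 18.9 to 22.2 M in control libraries, had r of 0.92 with Cth and 0.93 with Suox in Cyp7a1 libraries, and 0.96 with each in control libraries. Given this total, r of Cth and Suox was 0.96 in Cyp7a1 livers and 0.48 in control livers, that of Cdo1 and Gclc in Cyp7a1 livers was -0.90, and that of Cbs and Cth in control livers was 0.94. Given the summed hepatocyte markers, r of Cth and Suox was 0.981 in Cyp7a1 livers and 0.765 in control livers, that of Cdo1 and Gclc in Cyp7a1 livers -0.95 and that of Cbs and Cth in control livers 0.74. That sum was mostly Alb, with means of 1549950 normalized counts in Cyp7a1 livers and 1380720 in control livers. It is also a part of the library total. Both adjustments were chosen after seeing the data, and the part of these properties in the relations was not tested further. Scaled to equal totals, all 4 relations still passed, and 13 of the 78 passed in all.

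Among the genes whose variation within groups was most like that of Csad, over 16 libraries with group means removed, were Prdx2 (r = 0.89), Vps11 (0.84), Them6 (0.83) and Glmp (0.81) at one end of 10368 genes ranked. Prdx2 encodes a peroxiredoxin, which breaks down hydrogen peroxide. At the other end were Sult1b1 (-0.86), Fbxo8 (-0.83), Colec10 (-0.83), Gabpb1 (-0.82) and Dmtf1 (-0.81). The median size of r was 0.25. For Prdx2, r was 0.55 in Cyp7a1 livers and 0.96 in control livers, and for Colec10 it was -0.85 in both. Gabpb1 had -0.32 in Cyp7a1 livers and -0.88 in control livers, Sult1b1 -0.53 and -0.93, and Glmp 0.87 and 0.84. Csad varied more among control livers (SD on the log2 scale 0.49, against 0.16 in Cyp7a1 livers), so control livers weigh more in this ranking. None of these 9 genes passed the threshold between the groups (limma, adjusted p 0.110 to 0.992).

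The gene lists below were written with earlier results of these data known, so their counts are a description. Over all genes tested, 3.07% were past the threshold and higher and 3.05% past it and lower, with a median log2 fold change of 0.0034. Around taurine, 1 of 9 tested genes rose and 1 fell, and the median log2 fold change was 0.06. Got1, the cytosolic aspartate aminotransferase, which can also take cysteine sulfinate away from Csad, rose to 9927 ± 4600 normalized counts in Cyp7a1 livers, against 4066 ± 1752 in control livers (SD, n = 8 each). Its log2 fold change was 1.28 ± 0.29 (SE, limma adjusted p = 0.0136). Vnn1, the pantetheinase that releases cysteamine, another taurine precursor, fell by 0.54 ± 0.15 on the log2 scale (SE, adjusted p = 0.0372). The call of Vnn1 was lost without any 1 of 10 libraries, the highest adjusted p being 0.0717 without control 12, and with equal totals (0.0675). Baat, which joins taurine to bile acids, had a log2 fold change of 0.22 (adjusted p = 0.107), Fmo1, which oxidises hypotaurine to taurine, 0.17 (0.304), and Slc6a13, a carrier of GABA and taurine, -0.18 (0.205).

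In the methionine cycle, which feeds transsulfuration, 2 of 16 genes rose and 0 fell. The median log2 fold change of the list was 0.17, against 0.0034 over all genes, and 14 of 16 were above 0. Because the list was written with earlier results known, no shift of the cycle is read from these counts. Bhmt, which uses betaine to turn homocysteine back to methionine, rose to 44736 ± 12875 normalized counts in Cyp7a1 livers, against 26024 ± 3694 in control livers (SD, n = 8 each, log2 fold change 0.74 ± 0.15 SE, adjusted p = 0.00915). Bhmt2 rose by 0.31 ± 0.09 (adjusted p = 0.0405), a call lost without any 1 of 12 libraries, at most 0.0789 without Cyp7a1 19. The number of these 16 genes that rose was 1 to 5 when 1 library was left out, with 5 without Cyp7a1 24, and it was 5 with equal totals, 5 by DESeq2 and 4 with quantile normalization. Of 10 tested genes of sulfide and sulfate handling 1 rose, Selenbp1, a methanethiol oxidase, by 0.31 ± 0.07 (adjusted p = 0.0141), and 0 fell, with a list median of 0.03.

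Among 19 genes that use or recycle glutathione, 1 rose and 2 fell, with a median of -0.03. Ggct, gamma-glutamylcyclotransferase, which breaks down gamma-glutamyl peptides, rose to 178 ± 14.6 normalized counts in Cyp7a1 livers, against 112 ± 20.7 in control livers (SD, n = 8 each, log2 fold change 0.68 ± 0.10 SE, adjusted p = 0.000652). Gpx1, a glutathione peroxidase, fell by 0.28 ± 0.07 (adjusted p = 0.0341) and Glo1, which uses glutathione to clear methylglyoxal, fell by 0.27 ± 0.08 (adjusted p = 0.0460). The call of Gpx1 was lost without any 1 of 8 libraries and that of Glo1 without any 1 of 12, the highest adjusted p values being 0.0683 and 0.0790, both without control 16. Of 18 NRF2 targets and regulators, Gclc and Gclm not counted, 1 rose and 1 fell, with a median of 0.08. Gsta4, a glutathione transferase for lipid aldehydes, fell to 397 ± 96.2 normalized counts in Cyp7a1 livers, against 842 ± 174 in control livers (log2 fold change -1.09 ± 0.14 SE, adjusted p = 0.000277). Sqstm1, an autophagy adaptor, rose by 0.19 ± 0.05 (adjusted p = 0.0243, 0.0705 with equal totals). The number of these 18 genes that fell was 2 without Cyp7a1 2 and 2 without control 7.

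Cth is a known target of the stress factor ATF4, so 18 genes of ATF4 and of cysteine and serine supply were counted, of which 1 rose and 1 fell, with a median of -0.04. Asns, asparagine synthetase, rose to 94.0 ± 46.9 normalized counts in Cyp7a1 livers, against 19.6 ± 11.6 in control livers (log2 fold change 2.24 ± 0.38 SE, adjusted p = 0.00222), and Sesn2 fell by 0.43 ± 0.09 (adjusted p = 0.0105). Without control 13 the number that rose was 3, and without control 7 it was 2. The number that fell was 2 without Cyp7a1 24 and 2 without control 35. Atf4 itself had a log2 fold change of 0.10 (adjusted p = 0.539). Among 11 genes of bile acid feedback, 1 rose and 1 fell, with a median of 0.02. Cyp8b1, the sterol 12-alpha-hydroxylase, rose by 1.23 ± 0.11, with 8 of 8 Cyp7a1 livers above the control mean. Nr0b2 (SHP), a repressor of bile acid synthesis genes, fell by 1.95 ± 0.21, with 8 of 8 below it (SE, limma adjusted p = 3.79e-06 and 4.25e-05). Nr1h4 (FXR) had a log2 fold change of 0.14 (adjusted p = 0.236), and the others, Nr5a2, Hnf4a, Fgfr4, Klb, Nr1i2, Rxra and Abcb11, lay between -0.07 and 0.12, none past the threshold.

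Markers of other liver cells were looked at because Slc6a6 is also expressed outside hepatocytes. None of 10 Kupffer cell, 10 recruited macrophage, 10 stellate cell, 10 sinusoidal endothelial or 6 lymphocyte and blood markers passed, their list medians lying between -0.14 and 0.31. Of 7 cholangiocyte markers Tff3 rose and Krt23 fell, of 12 hepatocyte markers Tat rose, of 11 pericentral markers Rhbg rose and of 10 periportal markers Aldh1b1 rose. The calls of Tat, Rhbg and Aldh1b1 were each lost without at least 1 library, at adjusted p of 0.0906 without Cyp7a1 19, 0.0501 without Cyp7a1 28 and 0.0513 without control 38. The summed Kupffer markers ranged over 6224 to 24020 normalized counts in Cyp7a1 livers and 7319 to 12925 in control livers, and the summed stellate markers over 8584 to 15984 in Cyp7a1 livers and 6763 to 17561 in control livers. No detected marker was at 0 in any library, and the part of these cells in the differences above was not tested.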

How the data were processed

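mRNA was sequenced from 16 mouse livers, 8 per group, from 800 ng of total RNA with a KAPA HyperPrep kit, per the labels' protocols. The authors deposited normalized counts per gene, a signal per library, for 12618 genes; their notes on processing name mm10 and, without roles, DESeq2, featureCounts, STAR 2.7.11a, Trim Galore 0.6.10 and R 3.6.3 (per the submitters' processing notes). The annotation release and strand setting were not given in the sources used here. The 9 genes and the gene lists were chosen with earlier results of these data known.

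Ccne2, which held text in 1 cell, was left out, leaving 12617 genes; 19 symbols turned into dates were restored from gene IDs, of which 12594 matched GENCODE M21. limma 3.58.1 (R 4.3.3, trend) was run on log2(value + 1) over all genes, two-sided, with Benjamini-Hochberg adjustment and a threshold of 0.05; the minimum mean of 10 removed no gene. Fold changes are Cyp7a1 minus control on this scale, which understates low genes. Values were whole multiples of 1 read for at least 99.9% of genes per library (tolerance 0.05 reads), so reads, 13.8 to 27.4 M per library, could be recovered for the count tests edgeR 4.0.16 and DESeq2 1.42.0, used as alternatives. Other settings tried were quantile normalization, equal totals, a pseudocount of 8, a minimum mean of 50 or none, and each library left out.

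Correlations were tested with exact permutations (scipy 1.17.1), and the fit and this test were checked on simulated data. Named genes are the 9, all of the bile acid feedback list, up to 4 called genes of each other list (2 where none passed), 2 per marker list, and the 5 genes most and least like Csad, of which 1 is not reported here; Baat, Fmo1, Slc6a13, Atf4, Zfp740 and Acss2 were added after their values were seen. Positions are GENCODE M21 on GRCm38 (mm10), 1-based. Promoters are RefSeq's on GRCm38.p6.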

Additional observations from a re-analysis of the deposited data

Results flagged for a closer look

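Gclm in Cyp7a1 17 was 2300 normalized counts, far below the other 7 Cyp7a1 livers, which lay between 2682 and 2809; the gap took 0.77 of the group's range on the log2 scale, above Dixon's critical value for 8 samples. It was the single such case in 24 groups of 8 livers looked at (the 9 genes with Cyp7a1, Cyp8b1 and Nr0b2, in both groups), and chance gives about 1 in 20. The same liver had the highest Cdo1 (53214) and Cth (8798) and the lowest Gclc (2990) of its group. Its part in these values was not tested; without the 2 livers farthest from the Cdo1 median, r of Cdo1 and Gclm in Cyp7a1 livers was -0.28, against -0.69 with all 8.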

How the results depend on the processing

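No paired analysis was possible because the groups share no replicate numbers. Csad, Cth, Slc6a6 and Gclc kept direction and call under all 23 alternatives, and Cbs, Gclm, Gss and Suox passed under none. The log2 fold change of Csad ran from 2.36 to 2.53. These are refits of the contrast that entered the choice of the 9 genes, so they describe the processing and give no separate support. Over all genes 387 were higher and 385 lower; on the recovered reads the genes higher and genes lower were 381 and 379 by edgeR and 548 and 573 by DESeq2. Leaving out 1 library gave 230 (without Cyp7a1 28) to 399 higher and 245 (without Cyp7a1 28) to 414 lower, with 256 for genes lower without control 16. The 9 genes then gave 2 to 3 higher and 2 lower, the added one being Cdo1. Cdo1 also passed with quantile normalization (adjusted p = 0.00470), equal totals (0.0269) and DESeq2 (0.0153). Every alternative left the call in place for 15 of the 23 named genes that passed. With equal totals 13 of 78 relations passed against 4, and 4 of the 10 genes most like Csad remained; without centring 0 of them remained. The number of methionine cycle genes that rose, 2, was 5 with equal totals and 5 by DESeq2, and the number around taurine that rose, 1, was 2 with quantile normalization and 2 with equal totals. The cause of these changes was not tested. Each of the 9 genes had at least 683 recovered reads in every library, Gss the fewest.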
